A study of Mus musculus with 64 samples.

Results

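The small leucine-rich proteoglycans measured here were Ogn, Omd, Aspn, Dcn, Lum, Bgn, Fmod and Prelp, 8 genes of the 55414 gene identifiers in the acute count table and of the 55573 in the continuous one. They were taken by name: Ogn because it is lower in AS hippocampus in both cohorts, Omd and Aspn because they lie beside it on chromosome 13, and the others because they belong to the same family. Ogn was therefore chosen on its AS minus WT difference in the hippocampus, and its values in that comparison are given as a description without a test, and counts of genes there cover the other 7. All 8 genes were listed in both tables.

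The mice were WT males and AS males carrying a maternal Ube3a deletion (Ube3a m-/p+, exon 5 deleted), F1 hybrids of a 129sv mother and a C57BL/6J father, 10 to 18 weeks old. In the acute cohort the left hippocampus was taken 3 h after a subcutaneous injection of 3 mg/kg corticosterone (CORT) or of its ethanol and PBS vehicle, with 6 mice in each of the 4 groups. In the continuous cohort hippocampus and liver were taken on day 6 after implantation of a pellet with 20 mg CORT or of a cholesterol pellet as vehicle, with 5 mice in each group. Ube3a, which encodes an E3 ubiquitin ligase, is silenced on the paternal allele in neurons but not in most other cells, so the liver of an AS mouse keeps a working copy. The maternal deletion therefore takes Ube3a away chiefly from neurons.

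Small leucine-rich proteoglycans are secreted proteins of the extracellular matrix. Many of them bind fibrillar collagens and set how fibrils assemble, and several bind TGF-beta family ligands. In the brain their transcripts are best known from fibroblasts of the meninges and of vessels, and in the liver from the hepatic stellate cells and portal fibroblasts. CORT is the main glucocorticoid of the mouse and acts through the glucocorticoid receptor, a DNA-binding transcription factor.

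The total of counts on genes was 19049461 to 21052967 per acute library, 19112929 to 21783009 per continuous hippocampal library and 18612550 to 20868924 per liver library. Levels are CPM, each count divided by the TMM-scaled total of its library. By library totals without that scaling, 3 counts in a library stood for 0.138 to 0.161 CPM in the continuous cohort. Summed levels of 14 hippocampal neuron markers were 3376 to 4403 CPM in the acute mice, and those of 6 hepatocyte markers were 90987 to 138362 CPM in the liver, so the tissues matched their labels. In the liver Ube3a was 28.5 to 38.6 CPM in AS mice and 41.8 to 54.4 CPM in WT mice, without overlap, whereas in the hippocampus its reads did not separate the genotypes (64.1 to 82.0 CPM in AS and 52.5 to 84.7 CPM in WT mice of the acute cohort). The hippocampal value therefore checks no label. Counts of a whole gene include reads outside the deleted exon, and the part of these reads in the overlap was not tested. The continuous hippocampal libraries H9 (AS vehicle) and H13 (WT vehicle), which the study set aside as technical outliers, were left out of the tests and stood apart here too. Library H9 had 1548 CPM of the neuron markers and 1813 CPM of a thalamic list that was 54.6 to 239 CPM in the other continuous mice, and library H13 had 1172 CPM of the neuron markers and 13340 CPM of choroid plexus markers, against at most 2959 CPM in the others. In the acute cohort the number of reads set aside for low alignment quality was 1877 to 2237 in H1 to H16 and 2640 to 2850 in H17 to H24. All WT mice fell in the first range and all AS CORT mice in the second, and AS vehicle mice in both.

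Ogn (ENSMUSG00000021390) occupies chr13:49608046-49624501 on the plus strand of GRCm38, Omd (ENSMUSG00000048368) chr13:49582462-49592822 and Aspn (ENSMUSG00000021388) chr13:49544443-49567565, all in one orientation, with starts 25.6 and 63.6 kb upstream of that of Ogn. All 3 lie within Cenpp, a centromere protein gene on the opposite strand, which shares 7 exon bases with Aspn and 0 with Omd and Ogn. The promoters of these neighbours are shown because their levels are set side by side in what follows. Each run gives the 250 bases before the RefSeq start (GRCm38.p6, plus strand), at chr13:49607765-49608014 for Ogn, chr13:49582212-49582461 for Omd and chr13:49544193-49544442 for Aspn. Capitals mark matches, on either strand, to the TATA box TATAAA, the CCAAT box CCAAT, the glucocorticoid receptor hexamer AGAACA, the AP-1 site TGANTCA or the SMAD palindrome GTCTAGAC.
Ogn: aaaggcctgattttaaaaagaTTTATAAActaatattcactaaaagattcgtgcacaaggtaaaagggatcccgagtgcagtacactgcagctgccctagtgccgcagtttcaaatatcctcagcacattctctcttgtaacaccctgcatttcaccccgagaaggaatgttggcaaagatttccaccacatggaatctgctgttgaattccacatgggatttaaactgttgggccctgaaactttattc
Omd: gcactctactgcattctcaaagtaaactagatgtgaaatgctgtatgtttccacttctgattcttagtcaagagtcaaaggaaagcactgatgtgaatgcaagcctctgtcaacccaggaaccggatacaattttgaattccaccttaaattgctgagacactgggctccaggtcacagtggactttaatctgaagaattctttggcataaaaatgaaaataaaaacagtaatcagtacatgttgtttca
Aspn: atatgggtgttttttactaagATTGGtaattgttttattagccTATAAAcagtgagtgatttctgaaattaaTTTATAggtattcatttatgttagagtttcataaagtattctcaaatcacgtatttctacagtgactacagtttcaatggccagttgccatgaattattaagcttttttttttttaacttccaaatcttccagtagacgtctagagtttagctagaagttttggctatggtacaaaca
In Ogn the capitals are TATAAA on both strands, overlapping, the nearer ending 222 bases before the start. In Aspn they are CCAAT, 229 to 225 bases before the start on the opposite strand, and TATAAA on each strand, at 207 to 202 and at 178 to 173 bases. No capitals stand in the Omd run. Among 32851 promoters of the same length 12.4% held TATAAA, 33.8% CCAAT, 16.1% AGAACA, 6.75% TGANTCA and 0.167% GTCTAGAC. Of the 6 members with a promoter sequence, AGAACA occurred in 1, Bgn, and TGANTCA and GTCTAGAC in 0. The sequences of Dcn and Lum were not used here.

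Per kilobase of exon, Prelp had the highest hippocampal level of the family in WT vehicle mice, followed by Ogn. Prelp, a collagen-binding protein of basement membranes, was at 15.1 ± 1.85 CPM per kb (SD, n = 6) in the acute cohort and 11.6 ± 1.29 (n = 4) in the continuous one. Ogn, osteoglycin or mimecan, was at 3.73 ± 0.807 and 4.05 ± 0.806 CPM per kb. Bgn (biglycan, ENSMUSG00000031375, chrX:73483602-73495933) came next, at 2.74 and 2.41 CPM per kb. Dcn (decorin, ENSMUSG00000019929) and Lum (lumican, ENSMUSG00000036446) are neighbours on chromosome 10, at chr10:97479609-97518143 and chr10:97565128-97572703, and Prelp (ENSMUSG00000041577) and Fmod (fibromodulin, ENSMUSG00000041559) on chromosome 1, at chr1:133910304-133921414 and chr1:134037254-134048277. Dcn, Lum and Fmod lay between 0.989 and 2.39 CPM per kb, and Dcn overlapped in range with Lum and Lum with Fmod. Aspn (asporin) was at 0.468 and 0.372 CPM per kb, below all of these without overlap, and Omd (osteomodulin), best known from bone, was lowest at 0.0536 and 0.0510 CPM per kb. The ranges of Ogn and Bgn overlapped in the acute mice but not in the continuous ones.

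**Figure D1:**
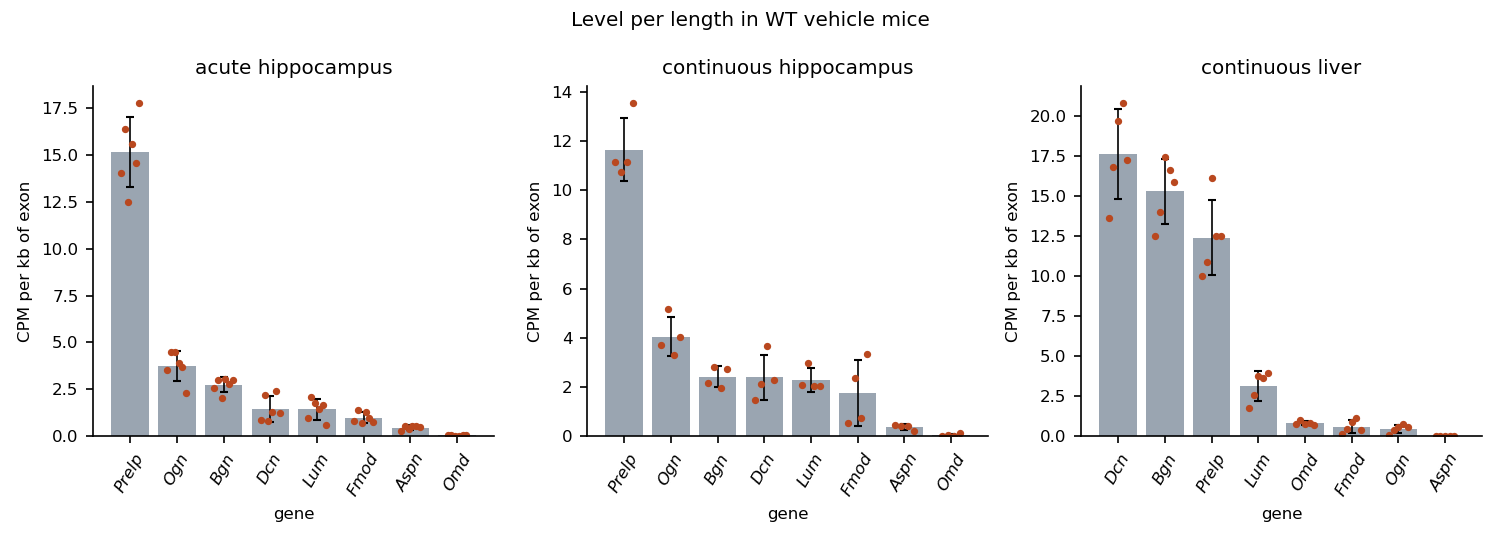
Level of each gene in CPM per kb of exon (vertical axis) in WT vehicle mice of the acute hippocampus, the continuous hippocampus and the continuous liver. Bars are means, error bars SD and dots single mice, with 6, 4 and 5 mice. Prelp leads and Ogn is the next in both hippocampal cohorts, whereas Dcn, Bgn and Prelp lead in the liver and Ogn is at 0.480 CPM per kb.

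Ogn was lower in every AS mouse tested than in every WT mouse, in both cohorts and under both treatments. Among the acute mice Ogn ranged from 5.92 to 11.5 CPM (median 9.75) in WT vehicle mice and from 5.96 to 12.3 CPM (median 7.32) in those given CORT. With vehicle the AS mice ranged from 2.29 to 2.57 CPM (median 2.38) and with CORT from 1.75 to 4.24 CPM (median 2.52). The 12 AS values thus lay below the 12 WT values, and the AS vehicle mice were the most alike of the 4 groups (SD 0.114 CPM). In counts this was 35 to 89 per AS library against 121 to 254 per WT library.

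In the continuous cohort the WT vehicle mice had 9.56, 13.3, 8.43 and 10.3 CPM of Ogn and the WT CORT mice 10.3, 8.57, 11.5, 7.91 and 8.34 CPM. The AS vehicle mice had 2.18, 2.34, 3.21 and 1.64 CPM and the AS CORT mice 2.68, 2.41, 2.09, 3.79 and 2.41 CPM. Again no AS value reached a WT value. The fitted AS minus WT log2 difference of Ogn was -1.99 (SE 0.19) for vehicle and -1.59 (SE 0.19) for CORT in the acute cohort, and -2.15 (SE 0.20) and -1.80 (SE 0.18) in the continuous one, 3.01 to 4.44 times lower. By signed size Ogn was number 3 from the lowest of 14611 genes in the acute cohort and number 2 of 14949 in the continuous one, averaged over treatments.

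The library left out as H9, labelled AS vehicle, had 7.40 CPM of Ogn, above the AS range and below the WT range of its cohort, while H13, labelled WT vehicle, had 12.9 CPM. With both libraries back in, the continuous vehicle difference of Ogn was -1.70. In the acute cohort the 4 AS vehicle mice among H13 to H16 had 2.29 to 2.53 CPM of Ogn, and the pair H17 and H18, across the alignment-quality division, lay at 2.40 to 2.57 CPM. The AS vehicle mice were the only group with mice on both sides of that division. In such bulk samples fewer cells of a type and less RNA per cell cannot be told apart.

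Among 12 meningeal fibroblast markers, 10 passed the filter in the acute and 8 in the continuous hippocampus. None of them was called for AS minus WT averaged over treatments by the quasi-likelihood test of edgeR, with median log2 differences of -0.03 and -0.33 against medians over all genes of -0.00303 and -0.000609. Their summed level was 43.7 to 60.7 CPM in AS vehicle and 42.2 to 56.9 CPM in WT vehicle mice of the acute cohort, and 41.6 to 76.2 CPM against 53.3 to 92.8 CPM in the continuous cohort, overlapping in both. Against the 14.2% of all genes called in the acute average and 0.348% in the continuous one, of 10 mural markers 0 were called in either cohort, and of 7 endothelial markers 1 was in the acute cohort, Ly6c1, at -0.19 (adjusted p = 0.037, edgeR), and 0 in the continuous one. Of 10 choroid plexus markers 4 passed the filter in the acute cohort and 2 of these were called lower in AS mice, Ttr at -3.73 and Sostdc1 at -0.69 (adjusted p of 0.016 and 0.044, edgeR), while 7 passed and 0 were called in the continuous cohort. Their summed level reached 1103 CPM in the acute WT vehicle group, whose median was 47.9 CPM, and in the continuous cohort it was 80.7 to 2959 CPM in WT vehicle (median 694 CPM) and 90.3 to 338 CPM in AS vehicle mice (median 157 CPM). Of 14 neuron markers 1 was called in the acute cohort, Wfs1, at -0.66 (SE 0.15, adjusted p = 0.0057, edgeR), and 0 in the continuous one. The part of these cell types in the difference of Ogn was not tested.

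**Figure D2:**
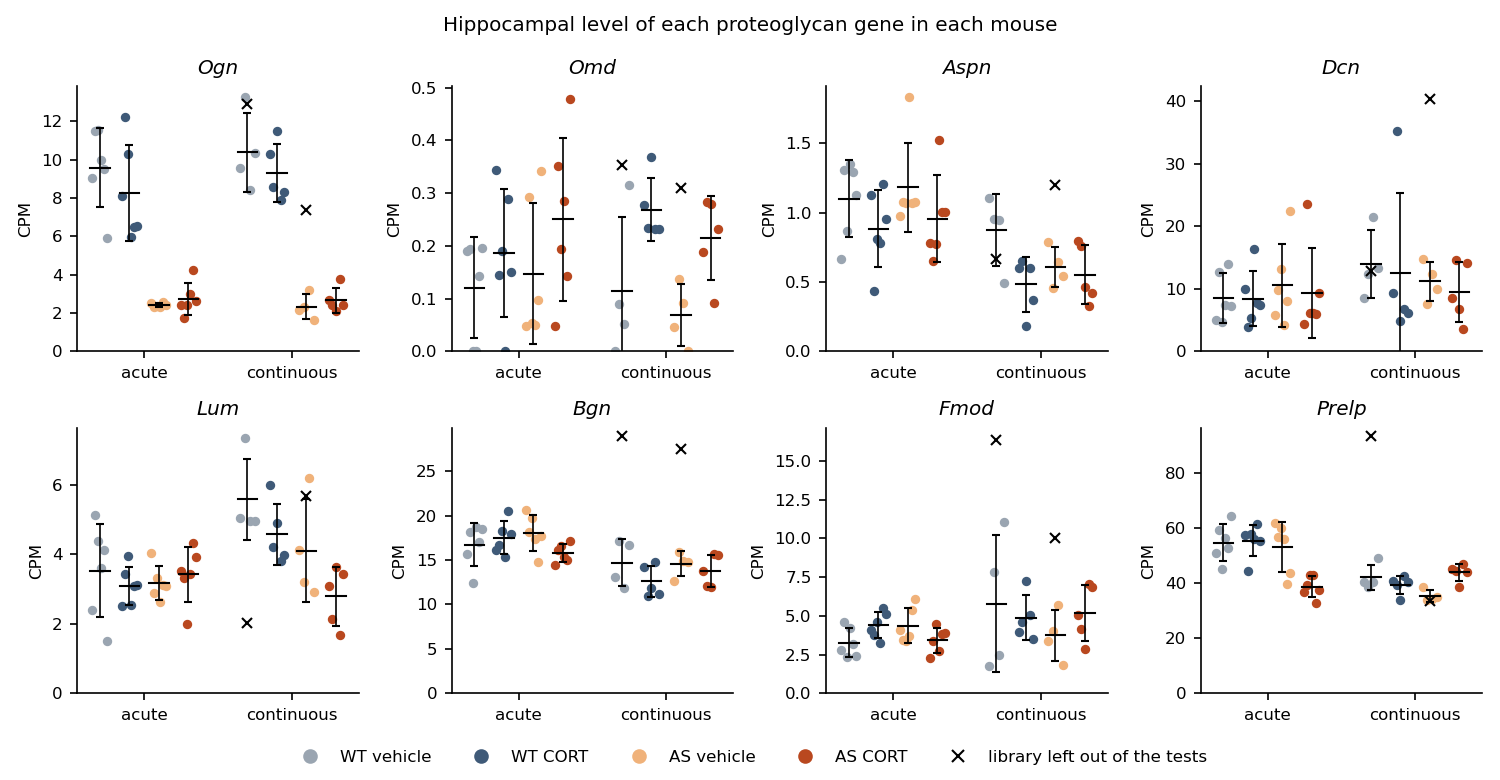
CPM (vertical axis) of each of the 8 genes in the hippocampus of each mouse, by cohort and group. Dots are mice, horizontal lines means, error bars SD and crosses the 2 libraries left out. For Ogn all AS dots lie at or below 4.24 CPM and all WT dots at or above 5.92 CPM, and for the other 7 genes the genotypes overlap except for Prelp in acute CORT and continuous vehicle mice and Lum in continuous CORT mice. The share of all genes whose genotypes do not overlap was not counted.

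Of the chromosome 13 neighbours, Aspn did not follow Ogn in the hippocampus, and Omd had too few counts there to be tested. Omd was below the filter on low counts in both cohorts, with 0 to 10 counts per library, and was therefore not tested there. It had 0 to 0.343 CPM in the acute WT mice and 0.0487 to 0.478 CPM in the acute AS mice, with medians of 0.170 and 0.168 CPM. Summed over libraries it had 38 counts in 12 WT and 49 in 12 AS mice of the acute cohort, and 39 in 9 WT and 29 in 9 AS mice of the continuous one, where Ogn had 1896 and 491. By treatment the continuous libraries held 16 counts of Omd in 8 vehicle mice, at 0 to 7 each, and 52 in 10 CORT mice, at 2 to 8 each, ranges that overlapped.

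Aspn, a collagen-binding protein that also binds TGF-beta, was tested in both cohorts. With acute treatment it ranged from 0.669 to 1.35 CPM (median 1.21) in WT vehicle, from 0.434 to 1.21 CPM (median 0.879) in WT CORT, from 0.974 to 1.83 CPM (median 1.07) in AS vehicle and from 0.652 to 1.53 CPM (median 0.892) in AS CORT mice. All groups overlapped. Its AS minus WT log2 difference averaged over treatments was 0.11 (SE 0.17, 95% interval -0.23 to 0.45, adjusted p = 0.70, edgeR) in the acute and -0.16 (SE 0.24, -0.66 to 0.34, adjusted p = 0.82) in the continuous hippocampus. Neither interval reached the differences of Ogn, -1.79 and -1.97, but Ogn was chosen for its fall.

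Of the 13 other genes annotated as protein-coding within 500 kb of Ogn, 11 passed the filter. Ogn was chosen for its fall, so a smaller difference in the others says little about them. Of the 11, 2 were called for AS minus WT averaged over treatments in the acute hippocampus and 0 in the continuous one, where 0.348% of all tested genes were called. Wnk2, a kinase of ion transport, was at -0.22 (SE 0.05, adjusted p = 0.0062, edgeR) and Bicd2, a dynein adaptor, at 0.13 (SE 0.04, adjusted p = 0.027) in the acute cohort, where 14.2% were called. The lowest of the continuous values was that of Ecm2, which encodes a leucine-rich repeat matrix protein and starts 103 kb upstream, at -0.60 (SE 0.13, adjusted p = 0.056). Ecm2 was at -0.07 (SE 0.08, adjusted p = 0.63) in the acute cohort. Nol8 and Iars, the neighbours downstream of Ogn, lay between -0.02 and 0.13. Cenpp, which spans Ogn on the other strand, was at 0.16 (SE 0.18) and 0.23 (SE 0.19), with adjusted p of 0.58 and 0.64.

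**Figure D3:**
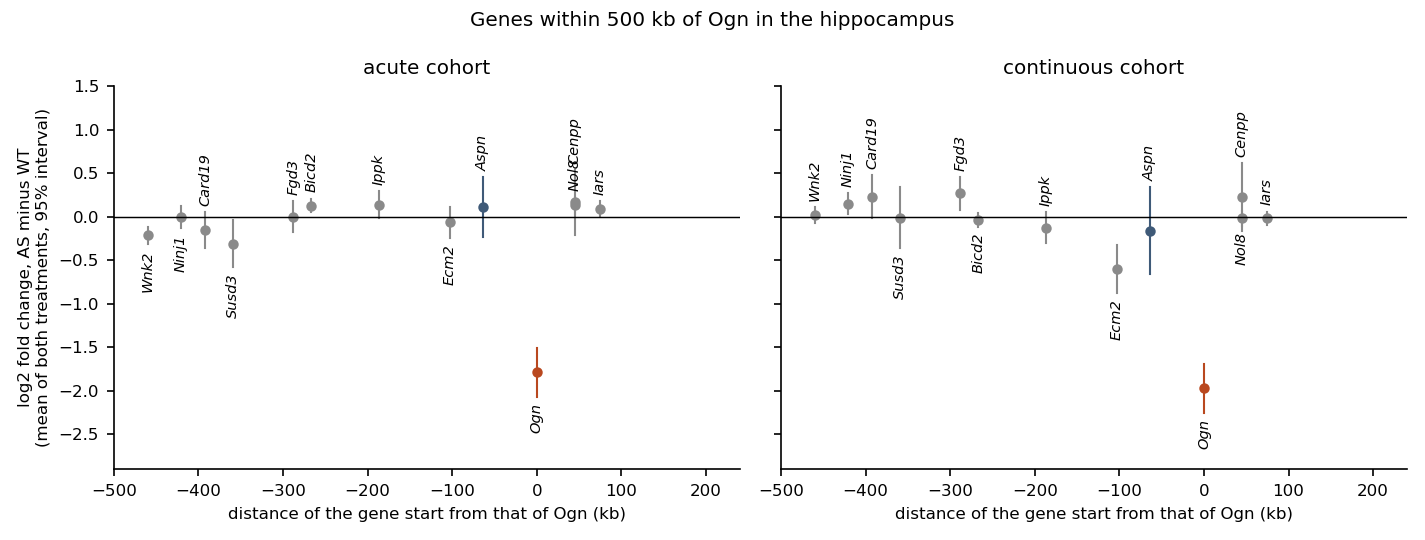
AS minus WT log2 fold change averaged over both treatments (vertical axis, with 95% intervals) of the tested genes within 500 kb of Ogn, against the distance of their start from that of Ogn in kb, in the acute and the continuous hippocampus. Ogn lies at -1.79 and -1.97 while its tested neighbours lie between -0.60 and 0.27.

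Of the other 7 family members 6 were tested for AS minus WT in the hippocampus. With vehicle, 0 were called in the acute cohort (0.157% of all genes) and 0 in the continuous one (0.0134%). At an unadjusted p under 0.05 (edgeR) 1 member passed in each, as did 1394 of 14611 and 1098 of 14949 genes. With CORT, 1 was called in the acute cohort (24.9% of all genes) and 0 in the continuous one (0.0401%). Unadjusted, 2 members and 1523 of 14949 genes passed in the latter. Averaged over treatments the counts were 1 (14.2% of all genes) and 0 (0.348%), the latter with 1 member and 1930 of 14949 genes unadjusted. The called gene was Prelp each time, and a share of 1 in 6 is near the background of the acute cohort. The median log2 difference of the 6 was 0.01 in the acute and -0.22 in the continuous cohort, averaged over treatments.

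Prelp was at 45.2 to 64.2 CPM (median 54.5) in acute WT vehicle, at 44.6 to 61.6 CPM (median 56.7) in WT CORT, at 39.9 to 61.9 CPM (median 56.4) in AS vehicle and at 32.7 to 43.1 CPM (median 38.5) in AS CORT mice. The AS CORT mice lay below all WT CORT mice. The AS minus WT log2 difference was -0.52 (SE 0.10, adjusted p = 0.0011, edgeR) with CORT and -0.28 (SE 0.07, adjusted p = 0.012) averaged over treatments. The 4 AS vehicle mice among H13 to H16 had 56.0 to 61.9 CPM of Prelp, whereas H17 and H18 lay at 39.9 to 43.7 CPM, like the AS CORT mice, which all share their range of low-quality reads. With that division as a covariate the differences were -0.03 (adjusted p = 0.99) and 0.04 (adjusted p = 0.95). All AS CORT mice and no WT mice fall in that range, so the 2 can be separated only through the 6 AS vehicle mice. The summed level of the 14 neuron markers was 3376 to 3847 CPM (median 3552) in AS CORT and 3814 to 4403 CPM (median 4171) in WT CORT mice, with 3 of them called lower and 1 higher in AS CORT mice against 24.9% of all genes, and their part in the value of Prelp was not tested. An antisense gene, Gm15851, shares 350 exon bases with Prelp, and the strand setting of the counting is not given in the sources used here.

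In the continuous hippocampus Prelp was at 40.3, 38.8, 40.3 and 49.0 CPM in WT vehicle mice and at 38.7, 33.8, 34.4 and 34.8 CPM in AS vehicle mice. These groups did not overlap, although their nearest mice were at 38.7 and 38.8 CPM, and the log2 difference was -0.25 (SE 0.08, adjusted p = 0.48, edgeR). With CORT the difference was 0.15 (SE 0.07, adjusted p = 0.48), opposite in sign to the acute one.

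Lum, a keratan sulfate proteoglycan of cornea and connective tissue, had the lowest continuous difference among the other members, -0.58 averaged over treatments (SE 0.17, adjusted p = 0.13, edgeR). Its CORT mice did not overlap: WT CORT mice had 5.98, 4.19, 4.89, 3.79 and 3.99 CPM and AS CORT mice 3.10, 2.13, 3.62, 1.66 and 3.43 CPM, a log2 difference of -0.71 (SE 0.23, adjusted p = 0.35). The Wald test of DESeq2 called the averaged difference (adjusted p = 0.043), as did edgeR without the AS vehicle mouse H14 (-0.71, adjusted p = 0.032). In acute mice Lum was at -0.01 (SE 0.15, adjusted p = 0.99).

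Dcn, Bgn and Fmod did not pass the test for genotype. Averaged over treatments Dcn was at 0.22 (SE 0.29) and -0.35 (SE 0.35), Bgn at -0.02 (SE 0.06) and 0.06 (SE 0.09) and Fmod at 0.03 (SE 0.13) and -0.27 (SE 0.30) in the acute and continuous hippocampus. The 95% interval of Bgn ran from -0.15 to 0.11 and from -0.13 to 0.24, and that of Dcn from -0.38 to 0.82 and from -1.09 to 0.39. Dcn varied widely among mice of a group, with 4.36 to 23.6 CPM in acute AS CORT and 4.80 to 35.3 CPM in continuous WT CORT mice. Its continuous difference rested on the WT CORT mouse H5, without which it was 0.09, and its acute one on the AS CORT mouse H20, without which it was -0.05. With the alignment-quality covariate the acute differences of Dcn, Bgn and Fmod were -0.41, 0.13 and -0.42.

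**Figure D4:**
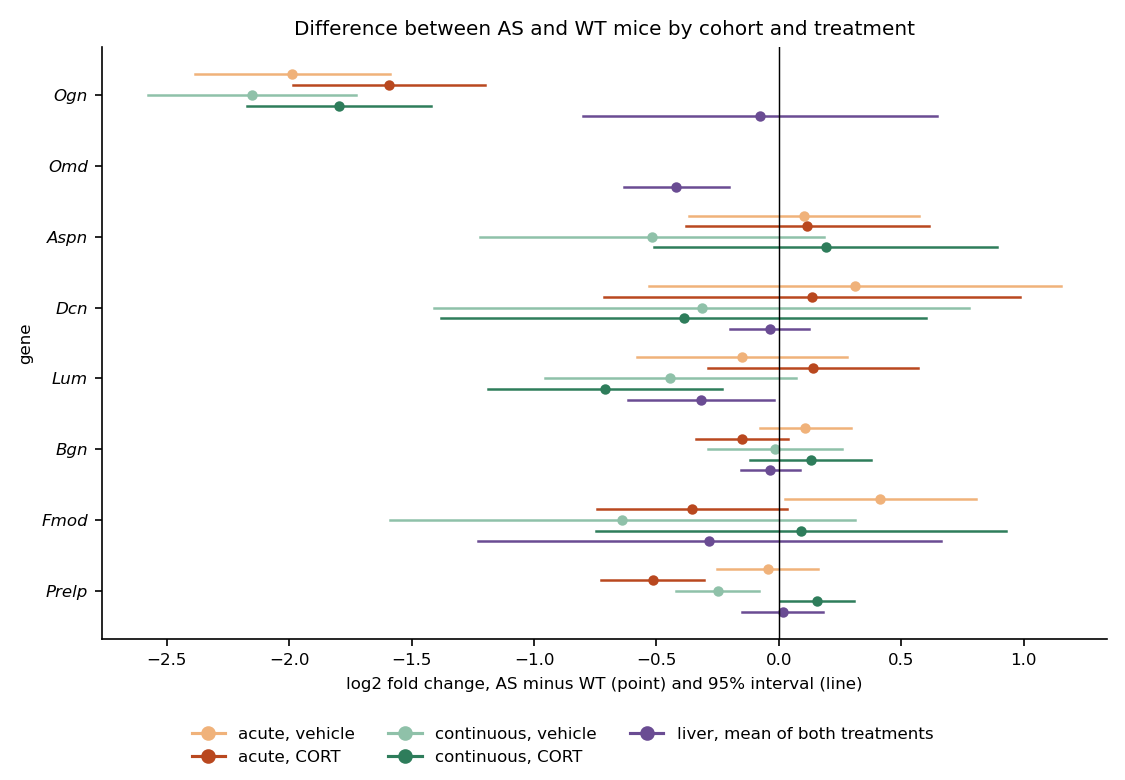
AS minus WT log2 fold change (horizontal axis, points with 95% intervals) of each gene for vehicle and CORT mice of the acute and the continuous hippocampus and, averaged over treatments, for the liver. Omd was tested only in the liver and Aspn only in the hippocampus. The 4 hippocampal intervals of Ogn lie between -2.58 and -1.20, and its liver interval runs from -0.80 to 0.64.

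Ogn did not pass the test for CORT in the hippocampus, and calls among the members were no more frequent in AS mice of the acute cohort than among all genes. After acute CORT, 0 of the 7 tested members were called in WT mice by edgeR (1.48% of all genes) and 1, Prelp, in AS mice (17.9% of all genes). After continuous CORT, 0 were called in WT mice (2.92% of all genes) and again 1, Prelp, in AS mice (3.77% of all genes). At an unadjusted p under 0.05 (edgeR), 1 member passed in the WT mice of each cohort, as did 1558 of 14611 and 2339 of 14949 genes. The CORT minus vehicle log2 difference of Ogn was -0.21 (SE 0.17, 95% interval -0.56 to 0.14) in WT and 0.19 (SE 0.21, -0.26 to 0.63) in AS mice of the acute cohort, and -0.16 (SE 0.17, -0.52 to 0.20) and 0.19 (SE 0.21, -0.25 to 0.63) in the continuous one. Adjusted p-values were 0.58 to 0.75. Ogn also had no called interaction of genotype and CORT, at 0.40 (SE 0.27, adjusted p = 0.39) and 0.35 (SE 0.27, adjusted p = 1.0). Of the 7 members 0 had one in either cohort (4.49% and 0% of all genes). At an unadjusted p under 0.05 (edgeR), 2 members and 3443 of 14611 genes passed in the acute cohort. In the continuous cohort these were 1 member and 561 of 14949 genes.

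Prelp in AS mice fell by 0.45 on the log2 scale after acute CORT (SE 0.10, adjusted p = 0.0040, edgeR), a value of -0.11 (adjusted p = 0.92) with the alignment-quality covariate. After continuous CORT it rose by 0.31 (SE 0.08, adjusted p = 0.028), from 33.8 to 38.7 CPM in AS vehicle mice to 45.1, 44.6, 38.7, 47.0 and 44.1 CPM in AS CORT mice. That call was lost with all 20 hippocampal libraries (0.33, adjusted p = 0.46) and on leaving out any of the AS CORT mice H7, H8, H16 and H18 or the AS vehicle mice H11, H14 and H19 (0.28 to 0.30, adjusted p 0.053 to 0.093). In WT mice Prelp was at 0.02 (SE 0.10) and -0.09 (SE 0.08). The interaction for Prelp was -0.47 (SE 0.14, adjusted p = 0.057) after acute CORT, and 0.40 (SE 0.11, adjusted p = 1.0) after continuous CORT. The acute one was called by DESeq2 (-0.48, adjusted p = 0.022) and by edgeR without 1 of the mice H6, H8, H17 and H18 (-0.55 to -0.52, adjusted p 0.011 to 0.037). H17 and H18 are the AS vehicle mice in the higher range of low-quality reads, which all AS CORT mice share. With the alignment-quality covariate the AS effect that enters this interaction was the -0.11 given above. Bgn in AS mice was at -0.19 (SE 0.09, adjusted p = 0.14) after acute CORT and was called without H17 (-0.26, adjusted p = 0.038).

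Aspn was at -0.31 (SE 0.24) and -0.30 (SE 0.23) after acute CORT and at -0.85 (SE 0.33, adjusted p = 0.20, edgeR) in WT and -0.14 (SE 0.34) in AS mice after continuous CORT. The WT vehicle mice of the continuous cohort had 1.10, 0.951, 0.949 and 0.496 CPM of Aspn and the WT CORT mice 0.602, 0.652, 0.184, 0.601 and 0.371 CPM, so the groups overlapped through 1 vehicle mouse. Fmod, which binds collagen in tendon and cartilage, had an acute interaction of -0.77 (SE 0.27, adjusted p = 0.087), with 0.43 in WT and -0.34 in AS mice.

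In the liver the groups overlapped for Ogn, whereas Omd rose with CORT in both genotypes. Ogn was at 0.241, 1.01, 1.52, 1.94 and 1.45 CPM in WT vehicle mice and at 0.529, 1.05, 1.18, 1.77 and 1.26 CPM in AS vehicle mice. With CORT it was at 0.693 to 2.77 CPM in WT and 0.374 to 2.39 CPM in AS mice. No group stood apart. The AS minus WT log2 difference averaged over treatments was -0.08 (SE 0.35, 95% interval -0.80 to 0.64, adjusted p = 0.97, edgeR). A test of that contrast between tissues was not made. The count per liver library was 5 to 54.

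Omd was at 1.73, 2.31, 1.72, 1.84 and 1.64 CPM in WT vehicle livers and at 8.52, 7.96, 8.34, 5.78 and 8.01 CPM in WT CORT livers. In AS mice it was at 1.25, 1.004, 1.13, 1.72 and 1.16 CPM with vehicle and at 6.81, 5.36, 6.13, 6.81 and 6.69 CPM with CORT. No CORT value overlapped a vehicle value in either genotype. The rise was 4.17-fold in WT (log2 2.06, SE 0.14, adjusted p = 5.8e-09, edgeR) and 5.05-fold in AS mice (log2 2.34, SE 0.15, adjusted p = 1.0e-09). Omd was the only member called in either comparison, 1 of 7 against 18.6% and 27.5% of all genes. The interaction was 0.28 (SE 0.21, 95% interval -0.15 to 0.70, adjusted p = 0.73). Averaged over treatments Omd was at -0.42 in AS minus WT liver (SE 0.10, adjusted p = 0.11), where 0 of 7 members were called (0.326% of all genes). At an unadjusted p under 0.05 (edgeR), 2 members and 1229 of 12273 genes passed there. Leaving out the AS vehicle mouse L14 gave -0.49 for Omd (adjusted p = 0.041).

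Aspn was nearly absent from the liver counts, with 0 to 3 per library, and was not tested. The other members moved less than Omd. Bgn was at 0.23 (SE 0.08, adjusted p = 0.056, edgeR) and Dcn at 0.23 (SE 0.11, adjusted p = 0.16) after CORT in WT livers, and at 0.07 (SE 0.08) and 0.01 (SE 0.11) in AS livers. The Bgn value passed with DESeq2 (0.23, adjusted p = 0.038) and without the WT vehicle mouse L6 (0.28, adjusted p = 0.023) or L13 (0.26, adjusted p = 0.045). Lum was at 0.43 (SE 0.20, adjusted p = 0.15) and 0.06 (SE 0.20). Prelp was at 0.16 (SE 0.11) in WT and at -0.30 (SE 0.11, adjusted p = 0.054) in AS livers, and the latter was called without 1 of the mice L1, L2, L6 and L10 (-0.35 to -0.30, adjusted p 0.023 to 0.042). Fmod was at -1.21 (SE 0.63, adjusted p = 0.20) and -0.05 (SE 0.65).

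Among 10 hepatic stellate markers, the cells best known for making these proteoglycans in liver, 4 were called lower and 1 higher after CORT in WT mice and 6 lower in AS mice, with medians of -0.35 and -0.56, where 18.6% and 27.5% of all genes were called. Pth1r was at -0.68 (SE 0.16, adjusted p = 0.0040, edgeR) and -0.92 (SE 0.15, adjusted p = 1.6e-04). The summed level of the 10 stellate markers was 226 to 324 CPM (median 275) in WT vehicle and 239 to 284 CPM (median 279) in WT CORT livers. In AS livers it was 282 to 340 CPM (median 318) with vehicle and 227 to 262 CPM (median 245) with CORT. The part of these cells in the rise of Omd was not tested.

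**Figure D5:**
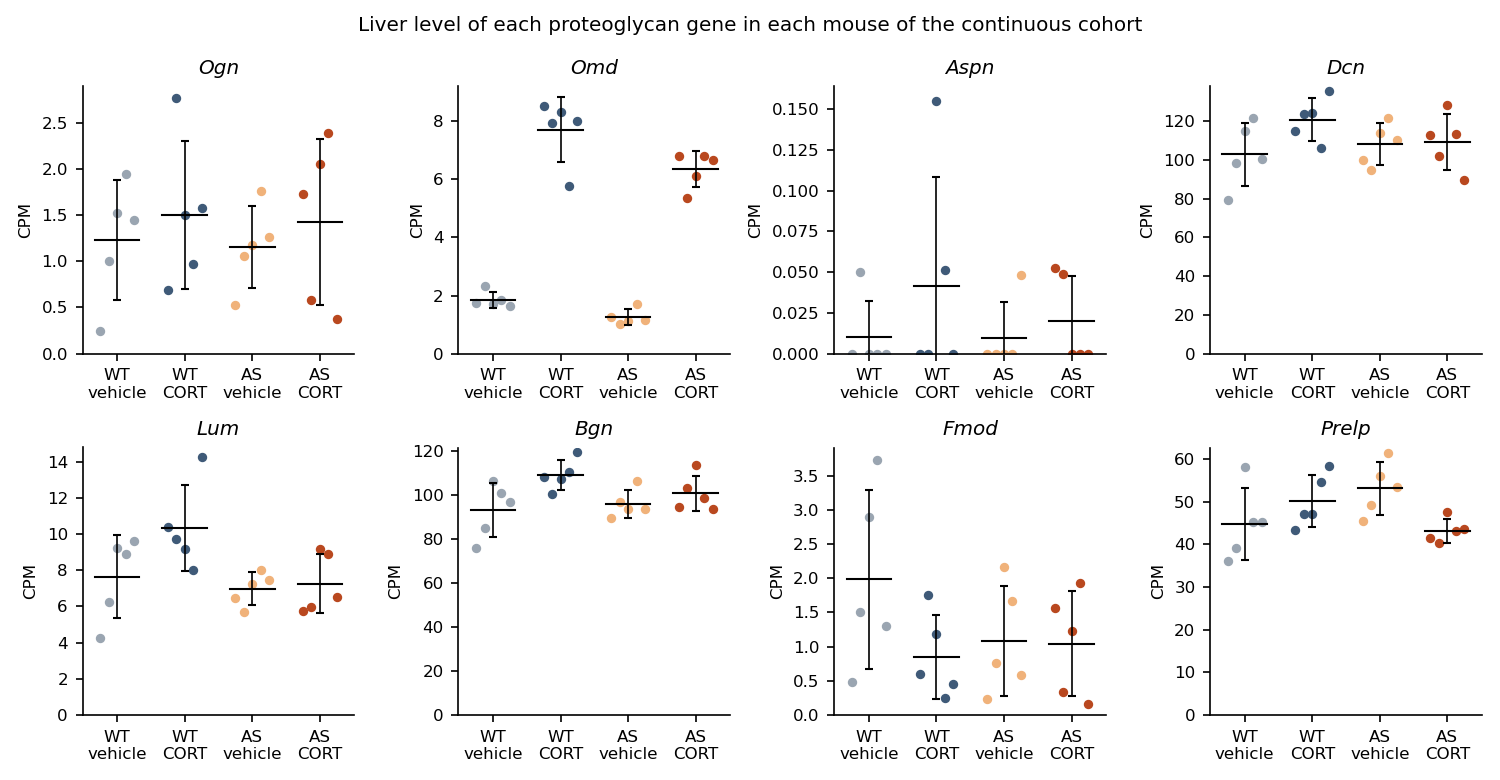
CPM (vertical axis) of each of the 8 genes in the liver of each mouse, by group, with 5 mice per group. Dots are mice, horizontal lines means and error bars SD. For Omd all CORT dots lie at or above 5.36 CPM and all vehicle dots at or below 2.31 CPM, and the Ogn groups overlap throughout.

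Between the tissues 95.1% of all genes tested were called, so a call says nothing particular to the family. This comparison scaled the libraries of both tissues together by TMM, while the CPM given here were scaled within each tissue, so its differences are not ratios of those CPM. Scaling to library totals instead, an alternative chosen after seeing the data, moved the median difference of all genes from -0.15 to -1.05. Averaged over the 4 groups the liver was higher than the hippocampus for Dcn (log2 4.14, SE 0.20), Bgn (3.74, SE 0.06), Lum (1.84, SE 0.12) and Prelp (1.15, SE 0.05), and by library totals at 3.24, 2.84, 0.94 and 0.25. It was lower for Ogn (-1.01, SE 0.18, adjusted p = 4.2e-06, edgeR) and Fmod (-1.14, SE 0.28, adjusted p = 2.3e-04), which were at -1.91 and -2.05 by library totals. Each of these 6 directions was called under both scalings. Omd passed the filter only through the liver, with 0 to 8 counts in each hippocampal library tested and 20 to 172 in each liver library, so it had to differ. Aspn, with at most 3 counts in a liver library, was highest in the hippocampus. In the liver the order per kilobase in WT vehicle mice was Dcn at 17.6 ± 2.80, Bgn at 15.3 ± 2.02 and Prelp at 12.4 ± 2.34 CPM per kb (SD, n = 5), each overlapping the next, then Lum at 3.13 ± 0.944.

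The CORT effect itself differed between the tissues for 2 members, against 19.9% of all genes, Bgn by 0.33 (SE 0.10, adjusted p = 0.019, edgeR) and Lum by 0.69 (SE 0.23, adjusted p = 0.026), both more positive in the liver. Both calls were lost with scaling to library totals (Bgn 0.23, adjusted p = 0.15, and Lum 0.59, adjusted p = 0.063). For Lum the call was also lost with the library number as a replicate block (0.69, adjusted p = 0.055), with all 20 hippocampal libraries (0.64, adjusted p = 0.079) and without the libraries numbered 4, 14, 16 or 20 (0.58 to 0.60, adjusted p 0.063 to 0.070), and for Bgn without number 4 (0.27, adjusted p = 0.056) or 20 (0.29, adjusted p = 0.051). Omd is not described here, since it was tested only through its liver counts. Dcn was at 0.34 (SE 0.35, adjusted p = 0.57) and was called without number 5 (0.78, adjusted p = 0.027).

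Genes of the pathway around these proteoglycans were counted in the same fits. Of 9 further leucine-rich proteoglycan genes, 4 were tested in the hippocampus and 0 were called for AS minus WT averaged over treatments in either cohort (14.2% of all genes in the acute and 0.348% in the continuous cohort), with medians of 0.04 and -0.0012. In the liver, where 18.6% of all genes were called for CORT in WT and 27.5% in AS mice, 2 of them were tested and Tsku (tsukushi, a secreted leucine-rich protein of liver) rose after CORT in AS mice by 3.06 on the log2 scale (SE 0.59, adjusted p = 6.3e-04, edgeR) and was at 1.47 (SE 0.56, adjusted p = 0.073) in WT mice. The summed level of the 9 genes was 31.9 to 221 CPM in WT vehicle and 249 to 329 CPM in WT CORT livers, and 10.8 to 88.7 CPM and 206 to 330 CPM in AS livers, without overlap in either genotype. That sum weighs genes by level and only 2 of the 9 were tested there, so it shows no rise of the list as a whole. Tsku was not called in WT mice. Of 10 collagens that these proteins bind or accompany, 9 were tested in the hippocampus and 2 were called higher in AS mice of the acute cohort averaged over treatments, where 14.2% of all genes were called. Col6a1 was at 0.998 (SE 0.14, adjusted p = 9.8e-05) and Col6a2 at 0.44 (SE 0.14, adjusted p = 0.040), both chains of the microfibrillar type VI collagen. In the continuous cohort 0 of the 9 were called, Col6a1 being at 0.73 (SE 0.17, adjusted p = 0.068) and Col6a2 at 0.44 (SE 0.18, adjusted p = 0.29). In the liver 2 of 10 collagens were called lower after CORT in WT and 4 in AS mice (18.6% and 27.5% of all genes), among them Col3a1, a fibril-forming chain, at -0.84 (SE 0.29, adjusted p = 0.045) and -1.54 (SE 0.30, adjusted p = 6.4e-04).

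Of 6 TGF-beta ligands and receptors 0 were called for AS minus WT averaged over treatments in either hippocampal cohort, against 14.2% and 0.348% of all genes. Tgfb1, the ligand that decorin and asporin bind, was lower in the liver after CORT in both genotypes, at -0.80 (SE 0.17, adjusted p = 0.0016, edgeR) in WT and -0.98 (SE 0.16, adjusted p = 1.6e-04) in AS mice. Of 5 tested there, against 18.6% of all genes called in WT and 27.5% in AS mice, Tgfbr3 was also lower in WT (-0.42, adjusted p = 0.029) and Tgfbr1 higher in AS mice (0.34, adjusted p = 0.047). Of 11 genes that build the glycosaminoglycan chains, 2 were called lower in AS mice of the acute cohort, again against 14.2% of all genes, Chpf at -0.32 (SE 0.05, adjusted p = 4.5e-04) and B3gat3 at -0.22 (SE 0.05, adjusted p = 0.0072), and 0 in the continuous cohort. Of 5 proteases that cut these proteoglycans 0 were called for genotype in either hippocampal cohort, with 4 tested in the acute and 5 in the continuous one and the same shares of all genes called. Of 4 tested in the liver (18.6% and 27.5% of all genes), Bmp1, a protease known to cleave several pro-forms of the family, was higher after CORT in WT (0.74, SE 0.10, adjusted p = 1.9e-05) and in AS mice (0.66, SE 0.10, adjusted p = 3.4e-05), while Adamts5, an aggrecanase, was lower in AS mice (-1.29, SE 0.34, adjusted p = 0.0074).

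The genes whose hippocampal pattern was most like that of Ogn were ranked by the smaller of the correlations of log2 CPM over the 24 acute and the 18 continuous mice, among 14418 genes tested in both cohorts. These points share the genotype groups, so a gene that differs between genotypes in the direction of Ogn ranks high. The first was Ghsr, the ghrelin receptor, with Pearson r of 0.83 and 0.88. It was followed by Stc2 (0.82 and 0.83), Trib2 (0.80 and 0.78), Aldh1a1 (0.77 and 0.80) and Gmnc (0.73 and 0.84). After subtraction of the group means these were 0.15 and 0.61 for Ghsr, 0.47 and 0.48 for Stc2, 0.77 and 0.32 for Trib2, 0.67 and 0.46 for Aldh1a1 and 0.73 and 0.42 for Gmnc. None of the 5 lies on chromosome 13. Among the family the most alike was Lum, with 0.18 and 0.62, and Aspn was at -0.14 and 0.04. Within groups Ogn and Lum correlated at 0.64 and 0.25, and Ogn and Aspn at -0.07 and -0.28. Ogn and Dcn correlated at -0.42 and -0.33, Ogn and Prelp at -0.47 and -0.04, and Ogn and Bgn at -0.24 and 0.43. Ogn and Fmod correlated at 0.16 and 0.67, Ogn and the mean of the meningeal fibroblast markers at -0.05 and 0.70, and Ogn and the mean of the choroid plexus markers at -0.63 and -0.08, and their part in the level of Ogn within groups was not tested. Over 20 liver mice the within-group r of Ogn was 0.86 with Fmod, 0.84 with Dcn and 0.21 with Omd.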

How the data were processed

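The authors sequenced stranded mRNA libraries as paired 100 bp reads, aligned them with STAR to mm10 and counted them per gene with HTSeq, and deposited raw counts for an acute and a continuous table. The annotation release and the strand setting of the counting are not given in the sources used here. Entries that name no gene, such as reads on no feature (11.7% to 23.3% of a library), were left out. Gene symbols and coordinates came from GENCODE M21 (GRCm38), which named 52081 of 55414 and 55394 of 55573 identifiers.

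A gene was tested if 3 or more mice of any group exceeded 20 normalized counts, which left 14611 genes in the acute hippocampus, 14949 in the continuous hippocampus, 12273 in the liver and 15937 across tissues. Of the 8 members 7 passed in each fit, Omd failing in the hippocampus and Aspn in the liver and across tissues. The main test was the quasi-likelihood test of edgeR 4.0.16 (R 4.3.3) with TMM scaling, 1 coefficient per group and Benjamini-Hochberg adjustment over all genes tested, called at an adjusted p under 0.05. Fitted log2 fold changes are given with their SE and 95% interval. The study's outliers H9 and H13 were left out of the continuous hippocampus. The scripts were tested on simulated counts.

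Alternatives were DESeq2 1.42.0, median-of-ratios scaling, no filter on low counts, a covariate for reads of low alignment quality (acute), all 20 libraries (continuous hippocampus), a replicate block for the library number (tissues), scaling to library totals (tissues, chosen after seeing the data) and leaving out each mouse (across tissues, the libraries of a number).

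Genes named are the 8 members, Ube3a, genes annotated within 500 kb of Ogn, the antisense gene that overlaps Prelp, up to 4 genes of each list and the 5 genes most like Ogn. The members and lists were chosen with earlier results of these data known. Intervals and 3-count limits cover counting error or the spread between the mice sampled.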

Additional observations from a re-analysis of the deposited data

Results flagged for a closer look

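In 7 of 84 groups of member values 1 mouse stood apart from the rest of its group by Dixon's test at the 95% level, which chance does in about 1 of 20 groups. Dcn was at 23.6 CPM in the acute AS CORT mouse H20, where the others had 4.36 to 9.37 CPM, and at 35.3 CPM in the continuous WT CORT mouse H5, where the others had 4.80 to 9.27 CPM. Aspn was at 1.83 CPM in the acute AS vehicle mouse H16, against 0.974 to 1.08 CPM in the others. Lum was at 7.34 CPM in the continuous WT vehicle mouse H4, against 4.95 to 5.05 CPM. Prelp was at 44.6 CPM in the acute WT CORT mouse H8, below 55.3 to 61.6 CPM, and at 49.0 CPM in the continuous WT vehicle mouse H17, above 38.8 to 40.3 CPM. In the liver Omd was at 5.78 CPM in the WT CORT mouse L15, below 7.96 to 8.52 CPM, and still above every vehicle mouse.

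The CORT effect differed between liver and hippocampus for Lum by 0.69 and for Bgn by 0.33 on the log2 scale in the test of the difference itself. With scaling to library totals neither passed (Lum 0.59 and Bgn 0.23). Without the libraries numbered 4 or 20 neither passed (Lum 0.58 and 0.60, Bgn 0.27 and 0.29), nor did Lum without number 14 (0.59) or 16 (0.58), with all 20 hippocampal libraries (0.64) or with the replicate block (0.69, adjusted p = 0.055, edgeR).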

How the results depend on the processing

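With the alignment-quality covariate 0 members were called in the acute cohort for AS minus WT with CORT, for AS minus WT averaged over treatments and for CORT in AS mice, against 1 each, and the averaged differences turned sign for Dcn (-0.41), Lum (0.031), Bgn (0.13), Fmod (-0.42) and Prelp (0.038). DESeq2 called 1 member for the acute interaction and 1 for the continuous hippocampal AS minus WT average, against 0, and 2 for CORT in WT liver, against 1. With all 20 hippocampal libraries 0 members were called for continuous CORT in AS mice, against 1, and the signs turned for Aspn in the AS minus WT average (8.8e-05) and for Ogn in CORT of AS mice (-0.32) and its interaction (-0.10). Hippocampal and liver libraries share numbers, but the sources used here do not state that a number marks 1 mouse, and the 18 pairs deviated together with r of -0.04 to 0.04, 2 of them matching their own number best. With the replicate block 1 member was called for the difference of the CORT effect between tissues, against 2, Lum being at 0.69 (adjusted p = 0.055), and it changed no other call. With scaling to library totals, chosen after seeing the data, 0 members were called for that difference, Lum being at 0.59 and Bgn at 0.23 (adjusted p of 0.063 and 0.15), and Ogn, Dcn, Lum, Bgn, Fmod and Prelp kept their directions between tissues. The causes were not tested.

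Leaving out 1 mouse at a time gave 1 to 2 called members for acute CORT in AS mice, 0 to 1 for the acute interaction, 0 to 1 for the continuous hippocampal AS minus WT average, 0 to 1 for continuous CORT in AS hippocampus, 0 to 1 for AS minus WT in liver, 1 to 2 for CORT in WT and in AS liver, and 0 to 3 for the difference between tissues. Signs turned within -0.046 to 0.37 for Dcn, -0.080 to 0.066 for Lum, -0.057 to 0.0066 for Bgn and -0.028 to 0.095 for Fmod (acute AS minus WT average), -0.45 to 0.088 for Dcn (continuous), and for Ogn in liver within -0.21 to 0.092 (AS minus WT) and -0.050 to 0.51 (CORT in WT). Of 17 counts 6 were unchanged under every alternative run. A further 70 single values were called under no setting, and 25 of them changed sign under at least 1, the largest being 0.39 in size. The AS minus WT difference of Ogn lay between -2.34 and -1.46 over all settings. Counts of 0 to 10 limit Omd in the hippocampus and of 0 to 3 Aspn in the liver.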
